A study of Mus musculus with 2 samples.

Results

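Scavenger receptors are cell-surface and lysosomal proteins that bind modified lipoproteins, bacteria, damaged cells and free haemoglobin and carry them into the cell. Their transcripts were followed here in the liver of mice fed olive oil with or without maslinic acid, a pentacyclic triterpene of olives. The set held 9 genes, Marco, Msr1, Cd36, Scarb1, Scarb2, Cd68, Cd163, Stab1 and Stab2, out of 12394 genes that the platform annotation names alone on at least 1 probe set. They were chosen by name, with the difference in Marco already known, and every probe set naming 1 of them alone was taken, 17 in all.

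The mice were described as 2-month-old females, homozygous for a disrupted apolipoprotein E gene on a C57BL/6J background, 12 in all and 6 per diet. Every mouse ate chow supplemented for 4 weeks with 10% (w/w) oil, which was plain olive oil in the control group and olive oil enriched in maslinic acid in the other. Liver RNA was hybridised as biotin-labelled cRNA to 1-colour Affymetrix arrays, with 1 array per diet. With 1 array per diet, no difference has a replicate check and no test between the diets was possible. The sources used here do not give whether an array holds RNA of 1 mouse or of several.

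The liver clears particles from blood mainly through cells that line its sinusoids. Kupffer cells, the resident macrophages, carry the class A receptors Marco and Msr1, which bind bacteria and modified low-density lipoprotein, and the haemoglobin receptor Cd163. Sinusoidal endothelial cells carry Stab1 and Stab2, which clear hyaluronan and other waste molecules. Hepatocytes take cholesteryl ester from high-density lipoprotein through Scarb1.

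RefSeq promoter windows (GRCm38.p6) existed for 7 of the 9 genes. The 250 bases before the start site are shown for Marco, the receptor that differed between the arrays, and for Cd68, a macrophage receptor that did not reach 1.5-fold. Capitals mark GAGGAA, a form of the core bound by PU.1, the transcription factor of the myeloid lineage. The Marco window lies at chr1:120505025-120505274 and the Cd68 window at chr11:69666171-69666420, both on the minus strand.
Marco: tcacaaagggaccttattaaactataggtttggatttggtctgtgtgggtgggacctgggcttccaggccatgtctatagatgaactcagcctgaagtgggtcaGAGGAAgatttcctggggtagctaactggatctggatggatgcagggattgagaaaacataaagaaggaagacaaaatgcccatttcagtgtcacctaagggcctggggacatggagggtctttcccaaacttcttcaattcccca
Cd68: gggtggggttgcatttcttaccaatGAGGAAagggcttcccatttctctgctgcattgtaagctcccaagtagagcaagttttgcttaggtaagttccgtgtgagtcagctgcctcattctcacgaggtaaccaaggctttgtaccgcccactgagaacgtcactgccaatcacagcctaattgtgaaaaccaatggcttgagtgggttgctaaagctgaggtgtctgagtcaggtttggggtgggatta
The match began 146 bases before the start site in Marco and 225 bases before it in Cd68, on the gene's strand in both. Searched on both strands, GAGGAA was present in the windows of 3 of the 7 genes, Marco, Cd68 and Stab1, and in 23.3% of all 32851 windows of this length. The motif TGACNNNGC, the core of the antioxidant response element bound by Nrf2, was present in 1 of the 7, Scarb2, and in 10.2% of all windows. These matches describe the letters of the windows and are not evidence of binding.

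Signals are given as deposited, as MAS5 intensities, and each log2 ratio has the maslinic-labelled array in the numerator. Signals under 40.0 were set to that floor for ratios, and a gene counted as measured where its brightest probe set reached 80.0 on at least 1 array. By this rule 8 of the 9 receptors and 5912 of the 12394 genes were measured, and Cd163 was not. The label of the knockout is in doubt, as Apoe read 407.7 on the olive-oil-labelled array and 7630 on the maslinic-labelled array. Directions are therefore given only between the arrays as labelled, written as the olive-oil-labelled and the maslinic-labelled array. A difference of genotype between the arrays cannot be told apart from diet for any ratio here. The only repeat measurement was between probe sets of 1 gene on the same array, where the SD of the log2 ratio was 0.23 over 1816 genes. This SD holds no spread between mice, RNA preparations or arrays, so it cannot decide whether a difference between the diets is real.

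Marco was lower on the maslinic-labelled array, and the other measured receptors lay within 1.15-fold on every measured probe set. Marco alone among the 8 was at least 1.5-fold lower, and 0 were at least 1.5-fold higher. Over all measured genes 1.57% were at least 1.5-fold lower and 1.47% at least 1.5-fold higher. The median log2 ratio was -0.04 over the 8 measured receptors, with 3 higher and 5 lower, and -0.0098 over all measured genes, of which 48.0% were higher. Since Marco was chosen for this difference, its place in these counts is a description.

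**Figure D1:**
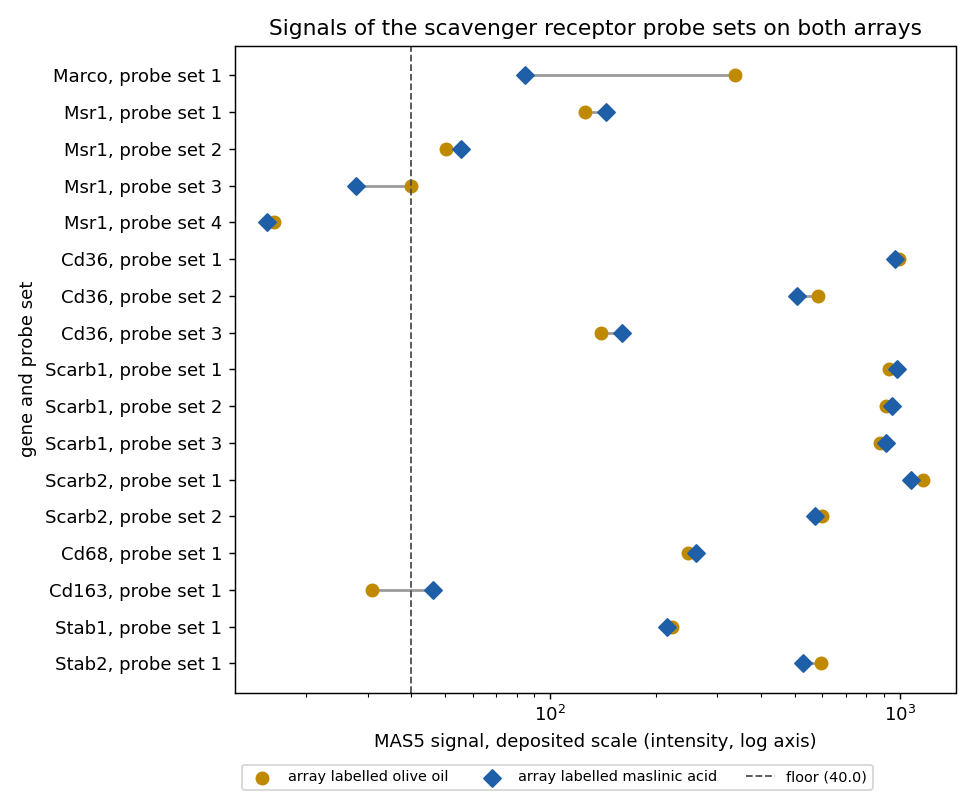
MAS5 signal (intensity, log axis) of the 17 probe sets of the 9 scavenger receptors on the olive-oil-labelled array (circles) and the maslinic-labelled array (diamonds), 1 array per diet, with the floor of 40.0 as a dashed line. The pair of points for Marco, 338.1 and 84.6, is far apart, while the points of the other measured probe sets lie within 1.15-fold of each other.

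Among the class A receptors, Marco is a trimeric membrane protein with a collagen-like stalk that captures bacteria, particles and modified lipoproteins. Its single probe set, 1449498_at, read 338.1 on the olive-oil-labelled array and 84.6 on the maslinic-labelled array. Both values lay above the floor, and the second lay just over the minimum of 80.0. The fold was 4.00 lower, a log2 ratio of -2.00. At least 3-fold lower were 0.0338% of measured genes, and at least 2-fold lower were 0.304%.

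The Marco ratio was the lowest of the 5905 measured genes above the floor on both arrays, and the next lowest was -1.39. Of 1860 measured genes with a mean signal within 1.5-fold of that of Marco, 211.4, 5 were at least 2-fold lower, Marco included, and 2 were at least 2-fold higher. The SD of the log2 ratio over these genes without Marco was 0.23. Since Marco was chosen for this difference, its rank, these counts and the shares above only describe it. No further probe set names Marco alone, so the difference rests on this probe set and on 1 hybridisation per diet.

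Msr1, the class A receptor first known for the uptake of acetylated low-density lipoprotein, was read by 4 probe sets. The brightest, 1448061_at, read 126.0 on the olive-oil-labelled array and 143.9 on the maslinic-labelled array, 1.14-fold higher, a log2 ratio of 0.19. A dimmer probe set read 50.4 and 55.5, a log2 ratio of 0.14, without reaching the minimum. The remaining Msr1 probe sets lay under the floor on both arrays, at 39.9 and 27.7 and at 16.2 and 15.5, and give no fold. The 2 Msr1 probe sets above the floor were thus slightly higher on the array where Marco was lower.

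Other class A genes were taken from a list of scavenger receptors. Colec12, a collectin-like receptor of vascular endothelium, read 144.0 and 163.2 on the olive-oil-labelled and maslinic-labelled arrays, a log2 ratio of 0.18. Scara3, at 56.9 and 57.8, did not reach the minimum, and the ferritin receptor gene Scara5, at 17.6 and 4.7, lay under the floor. Of the 3 measured class A genes, 2 were higher and Marco was lower.

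The class B receptors span the membrane at both ends and share a large extracellular loop. Cd36 takes up long-chain fatty acids and oxidised lipoprotein, and its 3 probe sets did not go the same way. The brightest, 1450883_a_at, read 996.1 on the olive-oil-labelled array and 971.8 on the maslinic-labelled array, a log2 ratio of -0.04. The others read 582.4 and 507.5, a log2 ratio of -0.20, and 139.9 and 160.8, a ratio of 0.20. Their mean log2 ratio was -0.01 with an SD of 0.20 (n = 3 probe sets on the same arrays), so no direction can be given for Cd36.

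Scarb1, the receptor for high-density lipoprotein, read 930.0 on the olive-oil-labelled array and 982.5 on the maslinic-labelled array with probe set 1416050_a_at, a log2 ratio of 0.08. Its other probe sets read 913.7 and 948.7, and 878.8 and 915.2. All 3 were higher on the maslinic-labelled array, by 1.04 to 1.06-fold, with a mean log2 ratio of 0.06 ± 0.013 (SD, n = 3 probe sets). Of these, 2 are of a kind that can read several transcripts, and probe sets of 1 gene share the hybridisation.

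Scarb2 encodes the lysosomal membrane protein LIMP-2, which carries glucocerebrosidase to lysosomes. Probe set 1454704_at read 1163.0 on the olive-oil-labelled array and 1077.2 on the maslinic-labelled array, a log2 ratio of -0.11. The other read 600.7 and 573.7, a ratio of -0.07. Both were slightly lower on the maslinic-labelled array, by less than the SD of 0.23 between probe sets of 1 gene.

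Receptors of the remaining classes were each read by 1 probe set. Cd68, the macrosialin gene of macrophage endosomes and lysosomes, read 248.2 on the olive-oil-labelled array and 260.7 on the maslinic-labelled array with 1449164_at, a log2 ratio of 0.07. Cd163, which binds haptoglobin-haemoglobin complexes, read 30.9 and 46.1 with 1419144_at. The first value lies under the floor and the second just above it, so Cd163 was at least 1.15-fold higher on the maslinic-labelled array, on signals below the minimum.

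Stab1, or stabilin-1, read 222.5 on the olive-oil-labelled array and 215.5 on the maslinic-labelled array with 1450199_a_at, a log2 ratio of -0.05. Stab2, the hyaluronan receptor of liver sinusoids, read 593.6 and 529.1 with 1419423_at, a log2 ratio of -0.17. Stab2 had the lowest ratio of the 7 measured receptors other than Marco, which ran from -0.17 to 0.19, and 19.2% of measured genes had a lower ratio than Stab2. All of them lay within the SD of 0.23 between probe sets of 1 gene, which holds no spread between arrays.

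**Figure D2:**
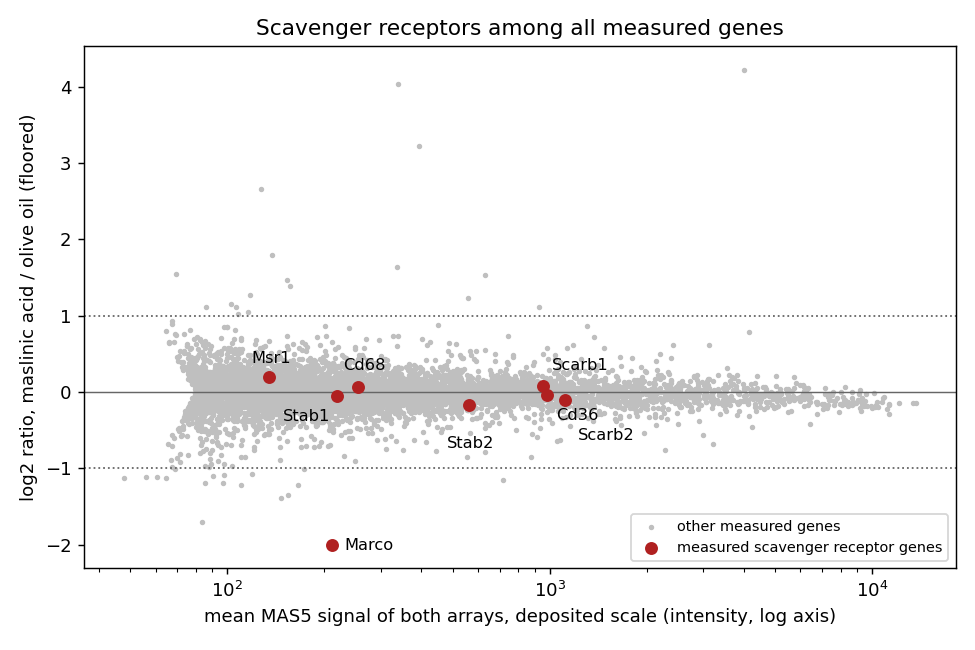
Log2 ratio of the maslinic-labelled array over the olive-oil-labelled array against the mean MAS5 signal of both arrays (log axis), for 5912 measured genes, with the 8 measured scavenger receptors in red and dotted lines at 2-fold. Marco lies at -2.00, and the other 7 receptors lie between -0.17 and 0.19.

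Of 22 scavenger receptor genes of all classes, 18 had a probe set naming them alone and 13 were measured. Their median log2 ratio was 0.01, with 7 higher and 6 lower. Among the 5 measured genes outside the 9 receptors, Cxcl16, a membrane chemokine that binds oxidised lipoprotein, had the highest ratio, at 95.2 and 123.3 on the olive-oil-labelled and maslinic-labelled arrays, a log2 ratio of 0.37. Cd44, a receptor of hyaluronan, had the lowest, at 283.2 and 221.0, a log2 ratio of -0.36. Neither reached 1.5-fold, and the endocytic receptors Lrp1 and Mrc1, named after their values were seen, lay at 0.02 and 0.01.

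Markers of Kupffer cells and macrophages did not share the size of the Marco difference. Of 20 markers, 19 had a probe set naming them alone and 18 were measured. Of the measured markers, Marco, Msr1 and Cd68 among them, 10 were higher and 8 lower, and 0 of the 19 lay under the floor on both arrays. The median log2 ratio of the 18 was 0.02, and 0.01 over the 15 left without Marco, Msr1 and Cd68. Without Marco, Msr1, Cd68 and Cd163, the summed signal was 14793 on the olive-oil-labelled array and 15056 on the maslinic-labelled array, a ratio of 1.02. In whole liver, fewer cells of a type and less RNA per cell cannot be told apart.

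Among the named macrophage markers, Adgre1, which encodes the F4/80 antigen, read 371.6 on the olive-oil-labelled array and 310.2 on the maslinic-labelled array, a log2 ratio of -0.26. C1qb, a subunit of complement C1q, read 884.8 and 1194.0, a ratio of 0.43, although its 3 probe sets ran from 0.10 to 0.43. Fcgr1 had a log2 ratio of 0.23. The Kupffer cell genes Clec4f, Vsig4 and Cd5l, named after their values were seen, lay at 0.13, 0.14 and -0.20.

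Sinusoidal endothelial markers, the setting of Stab1 and Stab2, were mostly lower on the maslinic-labelled array. Of 15 measured markers, Stab1 and Stab2 among them, 13 were lower and 2 higher, and none of the 15 reached 1.5-fold. Their median log2 ratio was -0.08, and also -0.08 over the 13 measured markers left without Stab1 and Stab2, which were both lower. Kdr, a receptor for vascular endothelial growth factor, had a log2 ratio of -0.49, Oit3 of -0.42, Cdh5, the cadherin of endothelial junctions, of -0.32 and Bmp2, which signals to hepatocytes, of -0.29. Without Stab1 and Stab2 the summed signal was 4890 on the olive-oil-labelled array and 4564 on the maslinic-labelled array, a ratio of 0.933. The part of this marker shift in the values of Stab1 and Stab2 was not tested.

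Hepatocyte markers, beside which Scarb1 is read, had a median log2 ratio of -0.18 with 8 of 9 measured genes lower, among them Ttr at -0.23, Hnf4a at -0.22, Alb at -0.21 and Hpd at -0.18. The 3 probe sets of Hnf4a ran from -0.22 to 0.64. Scarb1 lay at 0.08 on the same arrays. Every measured hepatocyte marker was brighter than Scarb1 on both arrays, and the part of brightness in these ratios was not tested. The part of hepatocyte signal in the Scarb1 value was not tested either.

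Genes of pattern recognition and phagocytosis work beside Marco in taking up microbes. Of 16 measured genes 9 were higher and 7 lower on the maslinic-labelled array, with a median log2 ratio of 0.09. Fcgr3, a low-affinity receptor for immunoglobulin G, read 126.1 on the olive-oil-labelled array and 194.9 on the maslinic-labelled array, 1.55-fold higher and the only gene of the list past 1.5-fold. Clec7a, the beta-glucan receptor dectin-1, had a log2 ratio of 0.49, C1qb of 0.43, and the integrin gene Itgb2 of -0.42. The coreceptor gene Cd14 and the adaptor gene Myd88, named after their values were seen, lay at 0.11 and -0.04.

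Transcription factors known for scavenger receptor genes or macrophage identity gave 8 measured genes, 3 higher and 5 lower, with a median log2 ratio of -0.04. Id1, an inhibitor of basic helix-loop-helix factors, read 231.1 on the olive-oil-labelled array and 140.5 on the maslinic-labelled array, 1.65-fold lower. Ppara, the fatty acid-sensing nuclear receptor, had a log2 ratio of -0.38, Cebpb of -0.33, and Nr1h3, the oxysterol receptor LXR alpha, of 0.29. Spi1, which encodes PU.1, read 74.4 and 65.2, under the minimum, and Nfe2l2, which encodes Nrf2, had a ratio of -0.07. Maf, Mitf, Tfec and Pparg also stayed under the minimum, and Id3 lay at -0.01. These genes, Spi1 and Nfe2l2 were named after their values were seen. The part of macrophages in these whole-liver signals was not tested.

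Lipid and lysosomal genes work beside the class B receptors and Cd68. The 9 measured genes of high-density lipoprotein and sterol ester handling had a median log2 ratio of 0.04, with 5 higher and 4 lower. Pdzk1ip1, which encodes a partner of the Scarb1 adaptor, had a ratio of 0.24, the sterol exporters Abcg1 and Abca1 of -0.47 and -0.21, and Lcat, which esterifies plasma cholesterol, of -0.19. The other Abca1 probe set gave 0.20. None of the 9 reached 1.5-fold.

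The 10 measured fatty acid uptake genes had a median log2 ratio of -0.04, with 3 higher and 7 lower. Of the fatty acid-binding protein genes, Fabp4 lay at 0.43 and Fabp1, the liver form, at -0.14, while their other probe sets gave 0.50 and -0.43. Fabp5 lay at -0.10 and the acyl-CoA synthetase gene Acsl4 at 0.12, but their 2 probe sets each had opposite signs. The 13 measured lysosomal genes had a median of -0.03, with 5 higher and 8 lower. Psap, the saposin precursor, lay at -0.27, the cathepsin gene Ctss at 0.19, and the acid glucosidase gene Gaa at 0.17, although its other probe set gave 0.61. The channel gene Mcoln1 lay at 0.16, and its dimmer probe set gave -0.34.

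Genes of haem and haemoglobin clearance work with Cd163, some in plasma before uptake and some in the cell after it. Of 10 measured genes 2 were higher and 8 lower, with a median log2 ratio of -0.04. Hmox1, the inducible haem oxygenase that breaks haem down, read 129.9 on the olive-oil-labelled array and 37.2 on the maslinic-labelled array, at least 3.25-fold lower. The plasma scavengers haptoglobin (Hp) and haemopexin (Hpx) lay at -0.16 and -0.14, and the iron exporter gene Slc40a1 at -0.11, or 0.15 on its other probe set. Apart from Hmox1, no gene of this list reached 1.5-fold.

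**Figure D3:**
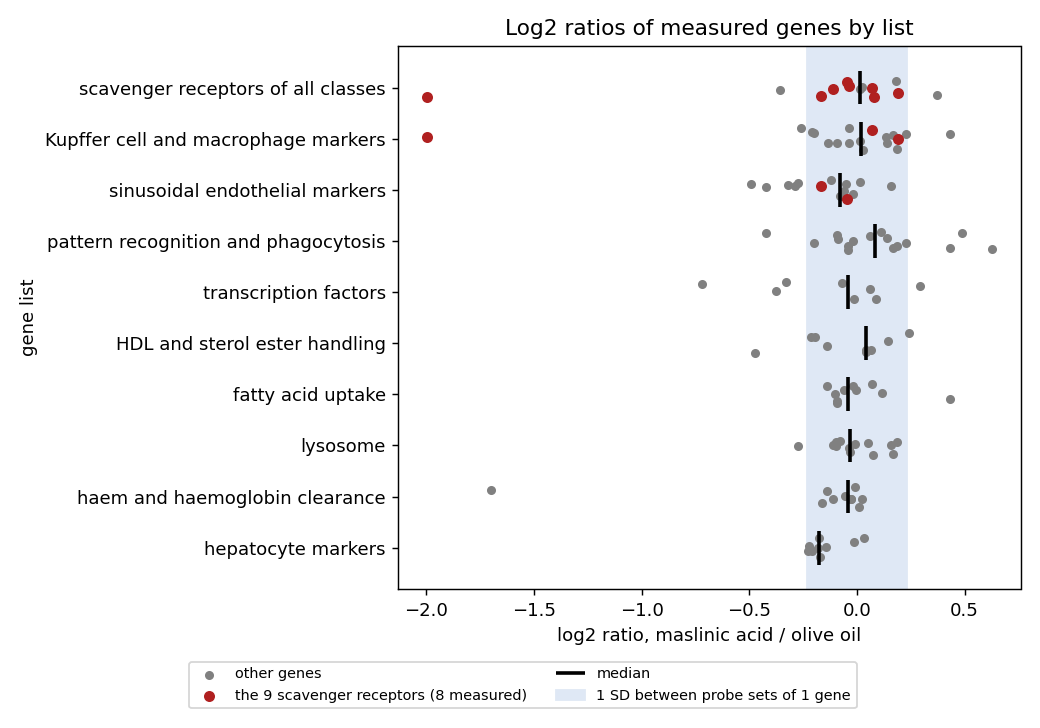
Log2 ratio of the maslinic-labelled array over the olive-oil-labelled array for each measured gene (points, with vertical scatter for legibility) in 10 gene lists. The 8 measured scavenger receptors are in red and list medians are shown as bars. The SD of 0.23 between probe sets of 1 gene is shaded. Marco at -2.00 and Hmox1 at -1.70, a bound, lie far outside the shaded band, and every list median shown lies inside it. The band is the spread of single probe sets on the same arrays, so it cannot judge a median over several genes. The neutrophil and monocyte, lymphocyte and stellate cell lists, with medians of 0.67, 0.33 and 0.21, are not shown.

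The measured genes whose ratio lay nearest to that of Marco were Hmox1, Ap2b1, Ctnnd1, Gadd45g and Srek1. With 1 array per diet, likeness here is only the distance between log2 ratios. Marco had the lowest ratio of all measured genes, so these are by construction the genes with the next lowest ratios. Hmox1 stood 0.30 away, as a bound. Ap2b1, a subunit of the clathrin adaptor AP-2, read 212.1 on the olive-oil-labelled array and 80.7 on the maslinic-labelled array, a log2 ratio of -1.39 and 0.60 away. Ctnnd1, p120 catenin, read 221.0 and 86.9, a ratio of -1.35. The stress gene Gadd45g and the splicing factor gene Srek1 each had a ratio of -1.22, and the other measured probe set of Srek1 gave -0.36. The remaining 4 genes have 1 measured probe set each.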

How the data were processed

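What the authors deposited is a table of MAS5 intensities on a linear scale, with 1 value for each probe set of each array, made with MAS5 per the submitters' processing notes. Its version and settings are not stated in the sources used here. There are 2 arrays, 1 per diet, with 22690 probe sets. Of these, 20393 name 1 gene in the platform annotation, 691 name several and 1606 are unnamed here; 20364 were matched by Entrez number to the GRCm38.p6 gene table. Genes without a probe set of their own in that annotation were not analysed here.

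Each array was rescaled from a 2% trimmed mean of 200.1 to 500, a factor of 2.50. After scaling, the floor was 100 and the minimum 200. A gene was represented by its brightest probe set, by the mean of both arrays. No test, SE or p-value can be had with 1 array per diet, so genes were described by size (1.5-fold, 2-fold and 3-fold), and precision is limited by the number of arrays. The scripts, in Python 3.11.15, were tested on simulated data with known folds.

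The members, the 15 gene lists and the naming rule were chosen with earlier results of these data known. The rule names the 9 receptors with every probe set, the 4 measured genes of each list with the widest differences, the 5 measured genes nearest to Marco in log2 ratio, and Apoe. Some genes belong to more than 1 list.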

Additional observations from a re-analysis of the deposited data

How the results depend on the processing

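Scaling was varied by keeping the deposited values, equalising the medians, quantile normalization or subtracting a loess trend. The floor was set to 50, to 200 or left out. The minimum was dropped, raised to 400, or applied to the average of both arrays. Genes were also read as the average of their measured probe sets, and without the _x_at and _s_at kinds. Over these, the Marco log2 ratio ran from -2.01 to -2.00, and the median of the measured receptors from -0.05 to -0.03. The number of receptors at least 1.5-fold lower stayed at 1 and the number higher at 0. Of the 131 recomputed values, the log2 ratios and medians moved by less than the SD between probe sets, and the rest were the counts just given. The signs of the 8 measured receptors did not turn in any setting. With a minimum of 400, Msr1 was not measured. No floor or minimum setting changed the ratio of any receptor that stayed measured, so many of the 131 values could not move. Marco has 1 probe set, so the choice of probe set could not change it either, and only the scaling settings could. With 1 array per diet no array could be left out. No paired analysis was possible because the diets have 1 array each. Detection calls were not used here, so little can be said of Cd163 and of the dim Msr1 probe sets.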

Other observations

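Markers of other blood and matrix cells, read beside the macrophage markers, were mostly higher on the maslinic-labelled array. Of 10 neutrophil and monocyte markers with a probe set naming them alone only 2 were measured, and 6 lay under the floor on both arrays. The measured ones were the calprotectin gene S100a8, at a log2 ratio of 0.68, and Lcn2, which hepatocytes also express, at 0.66. All 5 measured markers of lymphocytes and antigen presentation were higher, at a median log2 ratio of 0.33, led by Ighm at 1.54, whose 3 probe sets ran from 0.49 to 1.54. The class II genes H2-Aa, H2-Eb1 and H2-Ab1 lay at 0.50, 0.33 and 0.32, and the 3 probe sets of H2-Ab1 ran from 0.32 to 0.89. Of the 12 genes of this list with a probe set naming them alone, 6 lay under the floor on both arrays. These were the B cell genes Cd79a and Ms4a1 and the T cell genes Cd3e, Cd3g, Cd8a and Cd4, all named after their values were seen. The B cell gene Cd79b, named likewise, read 30.8 and 44.6 on the olive-oil-labelled and maslinic-labelled arrays, under the minimum. The 8 measured stellate cell markers had a median of 0.21 with 6 higher, among them Acta2 at 0.35, Lum at 0.34, Vim at 0.27 and Col1a2 at 0.21. Dcn, at -0.19, and Rgs5, at -0.08, both named after their values were seen, were lower. The other measured probe set of Rgs5 gave -1.19. The summed signal of the stellate list was 5105 on the olive-oil-labelled array and 5155 on the maslinic-labelled array. The summed signal of the lymphocyte list was 2760 on the olive-oil-labelled array and 4026 on the maslinic-labelled array, and Ighm alone made up 613.3 of the difference of 1267. For the neutrophil and monocyte list the sums were 586.7 and 888.9, and Lcn2 made up 192.2 of the difference of 302.2. The part of these cells in the Marco value was not tested.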
